A study of Mus musculus with 6 samples.

Results

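The older L1 and Lx elements are the LINE-1 copies of the mouse genome whose names do not begin with L1Md, the prefix of the younger mouse families. They were taken from the authors' deposited table of repeats as the rows of class LINE/L1 with any other name. They made up 79401 of the 773731 rows of that table and carried 125 repeat names. Each row is 1 genomic copy read in 1 direction, so the 79401 rows covered 77038 loci, and the L1Md rows outside the set numbered 20707. The study compared the mouse line ID8, an immortalized line from the ovarian surface epithelium of C57BL/6, in the genotypes Trp53-/- (Trp53_KO, 3 libraries) and Trp53+/+ (Trp53_WT, 3 libraries). Both were untreated and growing asynchronously, and stranded total RNA was sequenced. The labels do not say whether the libraries of a genotype came from separate cultures or how many clones carried Trp53-/-, and p-values therefore speak of differences among these 6 libraries only, whose spread may be technical.

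LINE-1 elements are retrotransposons that copy themselves through an RNA intermediate, and most copies are cut short at the 5′ end. L1Md families include the copies still active in mouse. Lx is a rodent-specific family, the L1M and HAL1 names belong to fossils shared with other mammals, and none of these older families is known to move any more. Many lie in introns, where the RNA of the host gene runs through them.

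Trp53 RNA, the check of the genotype, was at 29.6, 25.5 and 25.3 CPM (counts scaled to the size of each library) in the Trp53_KO libraries, against 110, 97.3 and 105 CPM in the Trp53_WT libraries. The log2 fold change was -1.95 ± 0.09 (SE, edgeR quasi-likelihood test, adjusted p = 2.7e-07). Gene counts per library totalled 16597529 to 19574772 in Trp53_KO and 15319956 to 19954170 in Trp53_WT. Trp53_WT replicate 1 stood apart: its counts differed from those of replicates 2 and 3 with a chi-square per degree of freedom of 29.7 and 29.2, against 2.1 between replicates 2 and 3. Between the Trp53_KO libraries it was 6.46 (replicates 1 and 2), 4.56 (1 and 3) and 9.51 (2 and 3). Epithelial and mesothelial markers were present, with 5 of 10 higher and 3 lower in Trp53_KO, although Cdh1 was low, at 0.638 to 0.905 CPM in Trp53_KO and 0.536 to 0.878 CPM in Trp53_WT. The summed CPM of 5 fibroblast markers was 229 to 251 in Trp53_KO and 101 to 108 in Trp53_WT, with Lum at 0, and all 3 that could be tested rose. The 5 endothelial markers summed to 30.5 to 37.9 CPM in Trp53_KO and 14.2 to 15.7 CPM in Trp53_WT, with Cdh5 and Kdr at 0, and both tested members rose. Of the 6 immune markers, which summed to 3.86 to 4.18 CPM in Trp53_KO and 4.86 to 5.2 CPM in Trp53_WT, Cd3e, Itgam and Adgre1 were at 0. The part of these markers in the results on repeats was not tested.

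The sequences of 5 fossil copies show what reads over older L1 elements look like; they were chosen because they lie inside exons of non-coding transcripts, where the transcript sequence of GENCODE M21 (build GRCm38, the same as mm10) gives their letters. Each is printed 5′ to 3′ as the RNA runs, which was on the minus strand in all of them. Capitals mark AATAAA, the letters of the usual polyadenylation signal, or TTTATT, the same letters on the other strand. The first copy, L1MDa at chr6:3326064-3326363, was read against the repeat strand in the transcript RP23-253G12.8 (Gm43196 in GENCODE), and is shown because it lies in the stretch of higher rows on chromosome 6 described further on.
L1MDa: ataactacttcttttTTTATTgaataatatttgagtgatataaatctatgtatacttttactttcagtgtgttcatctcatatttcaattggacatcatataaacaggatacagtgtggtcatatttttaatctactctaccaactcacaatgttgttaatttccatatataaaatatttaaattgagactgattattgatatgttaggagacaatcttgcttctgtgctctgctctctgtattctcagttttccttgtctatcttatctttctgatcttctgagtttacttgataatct
Lx5c is printed once for a pair of copies, chr3:92280413-92280712 and chr3:92245621-92245920, which were read along the repeat strand in RP24-574O8.8 and RP24-574O8.9 and were lower in Trp53_KO. Over their whole 550 bases the pair differed at 0 positions.
Lx5c: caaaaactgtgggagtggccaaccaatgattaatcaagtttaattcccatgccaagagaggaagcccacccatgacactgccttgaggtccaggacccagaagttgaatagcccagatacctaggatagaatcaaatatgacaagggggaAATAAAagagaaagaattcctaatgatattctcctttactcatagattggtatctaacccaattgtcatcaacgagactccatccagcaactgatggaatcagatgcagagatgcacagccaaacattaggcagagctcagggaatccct
L1MB8 at chr6:135312619-135312817, in RP23-200M5.7 (Gm44275), is shown as a lower row read against the repeat strand that holds the reversed signal; it was at -1.26 in the authors' deposited table (FDR 5.0e-04).
L1MB8: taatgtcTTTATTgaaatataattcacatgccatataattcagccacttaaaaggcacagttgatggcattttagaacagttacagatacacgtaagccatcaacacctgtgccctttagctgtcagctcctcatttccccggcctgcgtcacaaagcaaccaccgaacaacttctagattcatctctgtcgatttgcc
Lx9 at chr10:39556700-39556999, in Gm16364, is shown as a copy of the Lx subfamily with the most higher rows, read along the repeat strand; it was at 3.0 in the authors' deposited table (FDR 1.0e-03).
Lx9: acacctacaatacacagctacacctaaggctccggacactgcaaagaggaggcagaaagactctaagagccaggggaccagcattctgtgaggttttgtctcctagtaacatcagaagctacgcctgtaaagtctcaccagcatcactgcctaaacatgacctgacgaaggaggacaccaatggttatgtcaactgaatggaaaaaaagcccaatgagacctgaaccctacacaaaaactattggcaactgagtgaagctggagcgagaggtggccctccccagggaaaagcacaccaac
L1M3 at chr19:5838647-5838829 lies inside Neat1, the long nuclear RNA that builds paraspeckles, and is shown because its row was called while the gene was not.
L1M3: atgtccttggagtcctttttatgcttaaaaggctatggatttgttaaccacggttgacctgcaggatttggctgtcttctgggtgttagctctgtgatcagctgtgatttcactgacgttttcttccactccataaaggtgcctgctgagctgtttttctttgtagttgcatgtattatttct

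The letters were taken from the transcript sequence on the read strand. Rows read against the repeat strand carry the repeat's reverse complement, so A and T trade places by construction. Of the older L1 rows that lay wholly inside an annotated exon, 1211 were read along the repeat strand and 2086 against it. The rows read along had a median of 35.3% A and 24.1% T, whereas the rows read against had 23.3% A and 36.9% T. AATAAA was in 426 of the 1211 rows read along (35.2%) and in 182 of the 2086 read against (8.72%), and TTTATT was in 8.51% and 38.2% of them. Among the rows called in the comparison of genotypes, 14 of 27 read along (51.9%) and 1 of 26 read against (3.85%) held AATAAA. A match describes the letters only; use of these signals was not measured.

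The older L1 elements had a median change near 0 in Trp53_KO, and under 1% of the copies differed one by one. For each row the authors' deposited table lists a log2 fold change of Trp53_KO over Trp53_WT and a false discovery rate (FDR), with no value per library, so no spread between libraries can be given for a row and the depth behind it is unknown. The median over the 79401 rows was -0.0044 in the authors' deposited table, with quartiles of -0.764 and 0.498, and the median over all 773731 rows was 0.0003. Of the older L1 rows, 15680 (19.7%) shared 1 of the 20 most common fold changes and 13011 had an FDR of 1 in the authors' deposited table. At an FDR under 0.05, the threshold for a call here, 244 older L1 rows (0.307%) rose and 290 (0.365%) fell. Over all rows of the authors' deposited table the shares were 0.388% higher and 0.284% lower, and over the L1Md rows 33 (0.159%) were higher and 70 (0.338%) lower. The share of older L1 rows called, 0.673% in both directions, was thus close to the 0.672% of all rows. The called rows moved far: in the authors' deposited table the median log2 fold change was 2.85 for the higher ones (quartiles 1.81 and 4.05, highest 8.93) and -2.48 for the lower ones (quartiles -4.38 and -1.54, lowest -8.63). Called rows of all repeats also moved far, with medians of 2.08 for higher and -2.34 for lower rows in the authors' deposited table.

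Calls were spread over the subfamilies, with the highest shares in the group of L1_Mus, L1_Mur, L1_Mm and MusHAL1 names. The differences between groups were not tested. That group had 53 of 11741 rows higher (0.451%) and 82 lower (0.698%). L1_Rod and L1VL had 7 of 2189 rows higher (0.32%) and 13 lower (0.594%). Nearly all of these calls lay in L1VL names, as L1_Rod alone had 0 of 1029 rows higher and 1 lower (0.0972%). Lx, the largest group, had 93 of 26247 higher (0.354%) and 97 lower (0.37%). The ancient names had lower shares: L1MA and L1MB had 32 of 11604 higher (0.276%) and 36 lower (0.31%), and L1MC and L1MD had 21 of 9765 higher (0.215%) and 18 lower (0.184%). L1ME and numbered L1M had 36 of 16678 higher (0.216%) and 43 lower (0.258%), HAL1 had 2 of 1139 higher and 1 lower, and none of the 38 remaining rows was called. Elements were longer in the L1_Mus, L1_Rod and L1VL, and Lx groups, with medians of 554, 706 and 401 bases. In the L1M and HAL1 groups the medians were 197 to 238 bases. The order was not the same as that of the shares: L1_Rod and L1VL were longest but did not have the highest shares. The part of length in the shares was not tested. By length alone, 17 of the 2425 older L1 rows of at least 2000 bases were higher (0.701%) and 49 lower (2.02%). Of the 26181 older L1 rows under 200 bases, 34 (0.13%) were higher and 44 (0.168%) lower. Over all repeat rows the shares were 1.23% higher and 0.688% lower at 2000 bases or more. Under 200 bases they were 0.313% and 0.216%.

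**Figure D1:**
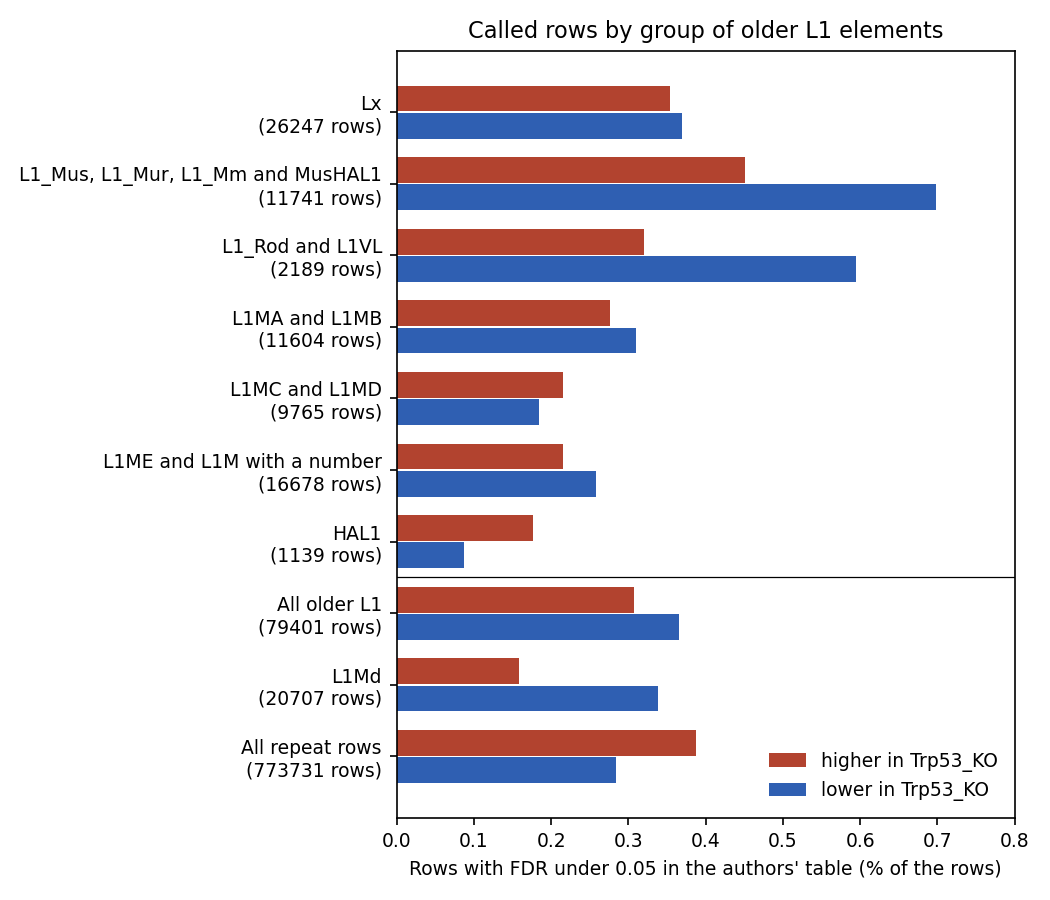
Share of rows with an FDR under 0.05 in the authors' deposited table (x axis, % of the rows), higher (red) and lower (blue) in Trp53_KO, for 7 groups of older L1 names, with all older L1, L1Md and all repeat rows under the line. The L1_Mus group has the longest bar for lower rows, 0.698%, against 0.284% over all repeat rows.

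Single subfamilies held from none to some called rows. Lx8, with 5343 rows the most numerous, had 13 higher and 18 lower rows, and Lx9, with 4140, had 26 higher (0.628%) and 15 lower. L1_Mus3 leaned the other way, with 9 of 3078 rows higher and 24 lower (0.78%), as did L1_Mus1, with 12 of 2293 higher and 21 lower (0.916%). Lx7 had 7 higher and 7 lower of 3150, L1_Mur3 11 and 9 of 2188, and Lx8b 5 and 8 of 1962. Of the ancient names, L1M5 had 3 higher and 9 lower of 2831, L1M4 8 and 3 of 2724, L1M2 1 and 7 of 2020, L1MB7 5 and 5 of 1801, and L1MB8 5 and 6 of 1558. Among subfamilies of at least 100 rows, Lx2A1 had the highest share of higher rows, 3 of 113 (2.65%), followed by Lx2B2 with 7 of 571 (1.23%). L1ME3B had the highest share of lower rows, 2 of 139 (1.44%), followed by L1VL4 with 6 of 477 (1.26%) and L1_Mus4 with 9 of 785 (1.15%). These shares rest on 2 to 9 rows each.

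Most of the set lay in introns and was read against its own strand. The annotation of the authors' deposited table placed 63138 rows in introns, and 42082 of them (66.7%) were read against the repeat strand, against 56.4% of the L1Md and 56.8% of all intronic rows. Between genes, where 11605 older L1 rows lay, the share was 48.5%, against 53.4% of L1Md and 44.7% of all intergenic rows. Calls were rarest in introns, with 142 rows higher (0.225%) and 170 lower (0.269%), against 0.238% and 0.203% of all intronic rows. Between genes 62 older L1 rows were higher (0.534%) and 79 lower (0.681%), against 0.85% and 0.401% of all intergenic rows. In 3′ untranslated regions 28 of 2759 were higher (1.01%) and 21 lower (0.761%), against 1.05% and 0.872% of all such rows.

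Most tested host genes of called copies moved in the direction of the copy. The host gene was the gene whose body overlaps the element on the strand of the reads, and its change was measured on the deposited gene counts of all 6 libraries. Only tested genes with a known position could be hosts, 11485 of 13651. Of 183 tested host genes of called rows, 160 (87.4%) were called in the direction of their row, 22 were not called and 1 went the other way (edgeR quasi-likelihood test, p adjusted by Benjamini-Hochberg over 13651 genes, threshold 0.05). Over all tested genes 30.3% were called, 14.1% higher and 16.1% lower. The 160 became 162 without Trp53_WT replicate 1. Of the 83 host genes of higher rows 74 rose (89.2%), and of the 100 host genes of lower rows 86 fell (86.0%). Across the 317 called rows with exactly 1 tested host gene, 312 had the sign of the gene, and Pearson's r of the row and gene log2 fold changes was 0.89. The 317 rows lay in 176 genes and come from the same libraries as the gene counts, so r is a description and has no p. Reads over rows in exons or untranslated regions can also be part of the gene count, so agreement there can be built in. Without the 9 rows of 5 genes with at most 3 counts in a group, whose fold changes depend on the fit, r was 0.9 over 308 rows. The median row lay 0.33 above its gene among higher rows and -0.58 from its gene among lower rows. Another 214 of the 534 called rows had no tested host gene with a known position. They include rows inside non-coding transcripts, reported further on, that were tested but could not be linked as hosts.

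**Figure D2:**
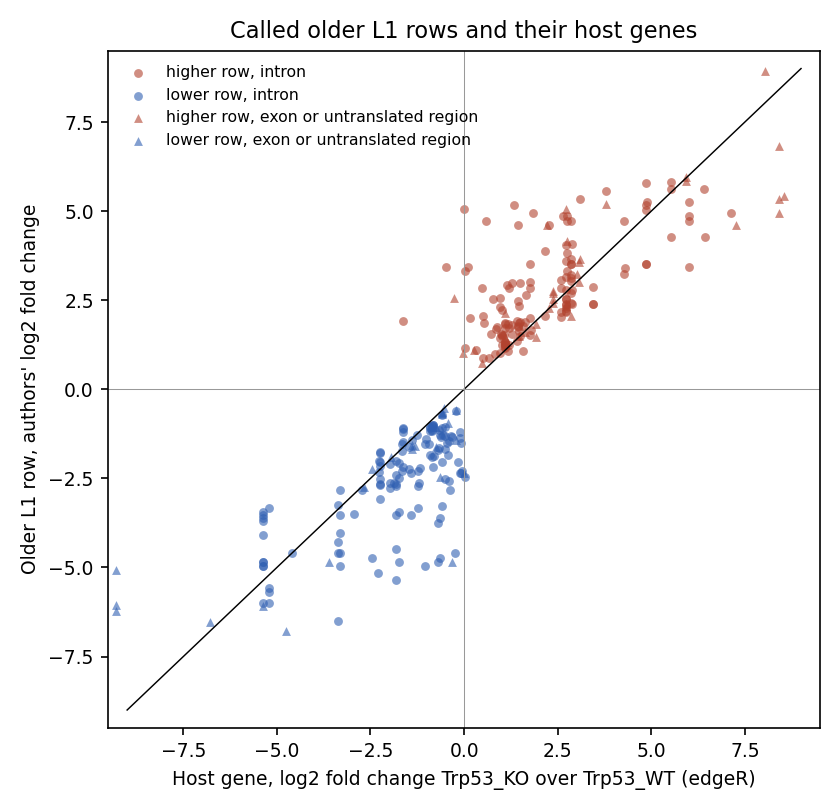
Log2 fold change of Trp53_KO over Trp53_WT of the host gene (x axis, edgeR) and of the older L1 row (y axis, authors' deposited table) for the 317 called rows with exactly 1 tested host gene; the line marks equal values. In all but 5 of the rows both values have the same sign; the points near the ends of the x axis include genes with at most 3 counts in a group.

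Intronic copies, whether called or not, were then grouped by the change of their host gene. Where the host gene rose by more than 1 on the log2 scale, the 1223 intronic older L1 rows of 184 genes had a median of 1.46 in the authors' deposited table, and 102 of them (8.34%) were higher and 0 lower. Where it rose by up to 1, the median of 6401 rows was 0.29 and 15 (0.234%) were higher. Under host genes that were not called, the median of 35212 rows was 0, with 6 higher and 10 lower. Where the host gene fell by up to 1, the median of 9981 rows was -0.45 in the authors' deposited table and 41 (0.411%) were lower. Where it fell by more than 1, the 1843 rows of 226 genes had a median of -1.36, with 72 (3.91%) lower and 1 higher. All intronic repeat rows, taken the same way, had medians of 1.4, 0.3, 0, -0.39 and -1.26 in the authors' deposited table. Of them, 6.69% were higher where the host gene rose by more than 1 and 0.288% where it rose by up to 1. Where the host gene fell by up to 1, 0.264% were lower, and where it fell by more than 1, 4.81%. Under host genes that were not called, 0.0377% were higher and 0.0265% lower. The older L1 copies thus moved with their host genes to much the same extent as repeats at large.

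**Figure D3:**
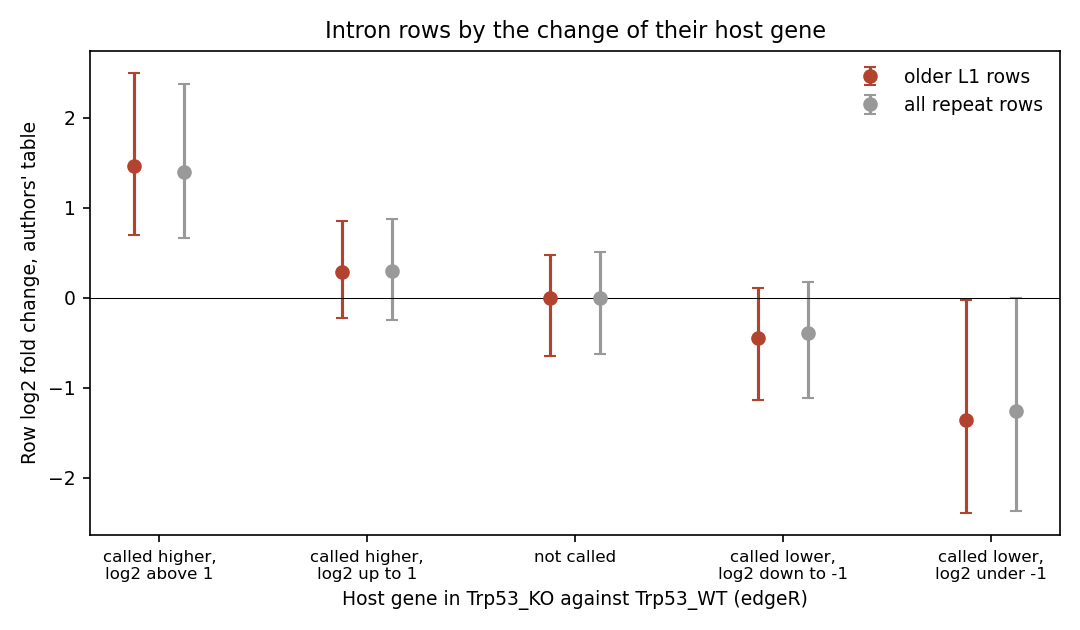
Median log2 fold change (points, with bars from the lower to the upper quartile) of intronic older L1 rows (red) and of all intronic repeat rows (grey) in the authors' deposited table, by the call of the host gene. The older L1 medians run from 1.46 where the host gene rose by more than 1 to -1.36 where it fell by more than 1.

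Of the 12 host genes with the most called rows, those that held only higher ones were Mir99ahg, Pkhd1l1, Adamts9, Hmcn1, Tfcp2l1 and Plxdc2. Mir99ahg, a long non-coding RNA that hosts the miRNAs miR-99a, let-7c and miR-125b, had 14 of its 49 older L1 rows called, all higher. Its level was 23.8, 27.0 and 26.0 CPM in the Trp53_KO libraries, against 4.05, 3.91 and 3.65 CPM in the Trp53_WT libraries (log2 fold change 2.73 ± 0.11 SE, edgeR adjusted p = 9.3e-08). The genotypes did not overlap, as was so for 6281 of all 13651 tested genes (46.0%).
Adamts9, a secreted metalloprotease that cleaves proteoglycans, had 10 of 27 rows higher. It was at 196, 179 and 198 CPM in Trp53_KO and 30.9, 24.2 and 24.6 CPM in Trp53_WT (2.85 ± 0.10 SE, edgeR adjusted p = 5.7e-08).
Pkhd1l1, a large membrane protein of the fibrocystin family, had 11 of 31 rows higher, although the gene itself moved less. Its level was 1120, 1130 and 1320 CPM in Trp53_KO and 633, 520 and 526 CPM in Trp53_WT (1.09 ± 0.10 SE, edgeR adjusted p = 2.1e-05).
Hmcn1, an extracellular matrix protein, had 5 of 28 rows higher, at 61.5, 54.6 and 77.2 CPM in Trp53_KO and 3.11, 1.98 and 1.77 CPM in Trp53_WT (4.85 ± 0.20 SE, edgeR adjusted p = 1.4e-07). Plxdc2, a membrane protein with a plexin domain, had 4 of 22 rows higher (gene 2.75 ± 0.09 SE, edgeR adjusted p = 3.6e-08). Tfcp2l1, a transcription factor, had 4 of 5 rows higher, in its 3′ untranslated region (gene 2.38 ± 0.10 SE, edgeR adjusted p = 1.8e-07).

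Of the 12 host genes with the most called rows, those that held mainly lower rows were Cacnb2, Trit1, Ank, Fmn1, Eda2r and F13a1. Cacnb2, an auxiliary subunit of voltage-gated calcium channels, had 11 of its 61 older L1 rows called, all lower. It was at 0.102, 0.241 and 0.266 CPM in the Trp53_KO libraries, against 9.45, 8.46 and 8.04 CPM in the Trp53_WT libraries (log2 fold change -5.38 ± 0.24 SE, edgeR adjusted p = 2.2e-07). Trit1, which modifies an adenosine beside the anticodon of tRNAs, had 8 of 9 rows lower. Trit1 was at 22.3, 24.0 and 25.2 CPM in Trp53_KO and 114, 118 and 107 CPM in Trp53_WT (-2.24 ± 0.08 SE, edgeR adjusted p = 5.6e-08). Ank, which exports pyrophosphate, had 7 of 18 rows lower (gene -1.82 ± 0.07 SE, edgeR adjusted p = 9.5e-08). F13a1, the A subunit of coagulation factor XIII, had 4 of 46 lower (gene -5.22 ± 0.10 SE, edgeR adjusted p = 1.1e-09).
Eda2r, a receptor of the tumour necrosis factor family and a known p53 target gene, had 5 of 17 rows lower. It was at 10.1, 9.6 and 8.83 CPM in Trp53_KO and 89.4, 97.0 and 96.7 CPM in Trp53_WT (-3.31 ± 0.09 SE, edgeR adjusted p = 1.0e-08). Just past its annotated end, 0.9 kb downstream, the L1MB7 copy at chrX:97332334-97332940 was at -4.2 in the authors' deposited table (FDR 6.3e-21). Pmaip1, another known p53 target and singled out here after its values were seen, had all 3 of its older L1 rows lower in the 3′ untranslated region. Its gene counts were 0, 0 and 0 in the Trp53_KO libraries and 67, 92 and 76 in the Trp53_WT libraries.
Fmn1, a formin that builds actin filaments, was the 1 host gene called in the direction opposite to a row. It had 5 of 45 rows lower and 1 L1MB8 row higher, at 1.93 in the authors' deposited table (FDR 0.001). The gene was at 56.5, 62.4 and 64.5 CPM in Trp53_KO and 254, 161 and 158 CPM in Trp53_WT, where replicate 1 was the highest (-1.64 ± 0.17 SE, edgeR adjusted p = 6.6e-05). Without Trp53_WT replicate 1 its log2 fold change was -1.38.

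**Figure D4:**
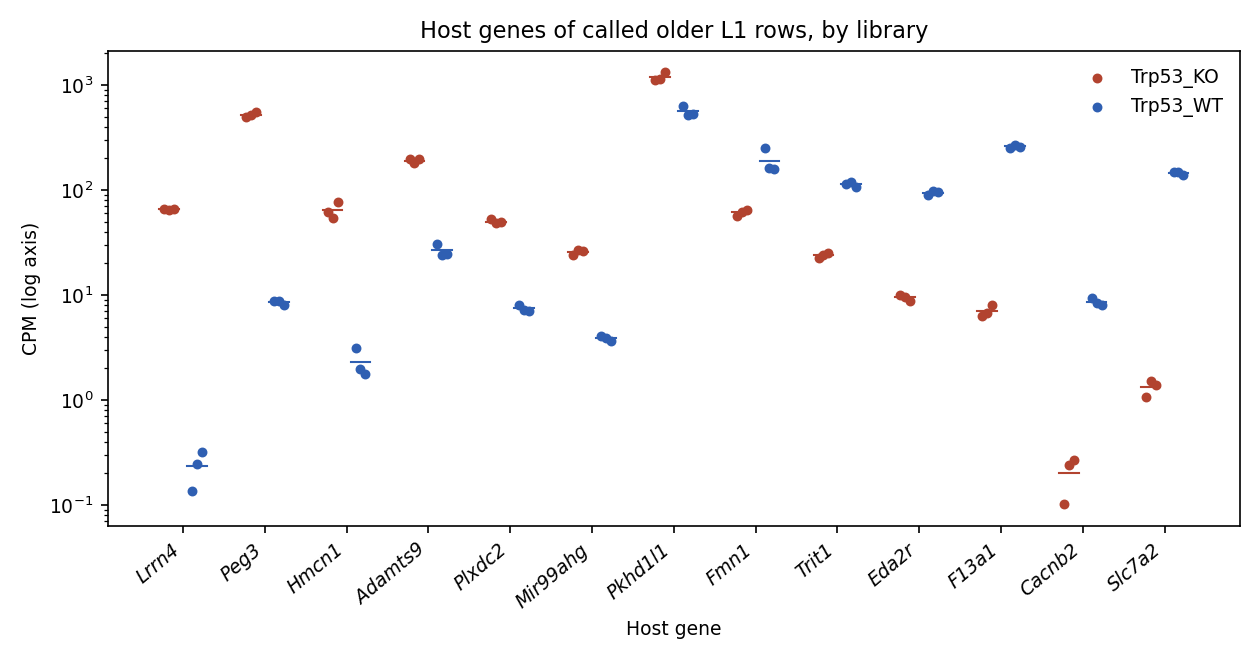
Level in CPM (log axis) of 13 host genes of called older L1 rows in each of the 3 Trp53_KO (red, left) and 3 Trp53_WT (blue, right) libraries, with a line at each mean. The genotypes do not overlap in any of these genes, which also holds for 6281 of all 13651 tested genes (46.0%). Mir99ahg is at 23.8 to 27.0 CPM in Trp53_KO and 3.65 to 4.05 CPM in Trp53_WT.

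Several copies with a low FDR lay in untranslated regions. In Peg3, a paternally expressed imprinted gene for a zinc finger protein, L1ME4a at chr7:6703974-6704050 was at 5.84 (FDR 1.6e-66) and L1ME4c at chr7:6705068-6705144 at 5.95 (FDR 3.7e-61) in the authors' deposited table. Peg3 itself was at 496, 515 and 550 CPM in Trp53_KO and 8.78, 8.85 and 8.04 CPM in Trp53_WT (log2 fold change 5.93 ± 0.08 SE, edgeR adjusted p = 5.2e-10). Row and gene had nearly the same fold change. In untranslated regions, here and in the genes below, the same reads can count for row and gene, so their agreement can be built in.
In Lrrn4, a leucine-rich repeat membrane protein and a marker of mesothelium, Lx2A1 at chr2:132868502-132868655 was at 8.93 in the authors' deposited table (FDR 2.6e-52), the highest of the older L1 rows. Lrrn4 was at 65.4, 64.8 and 66.4 CPM in Trp53_KO and 0.135, 0.247 and 0.322 CPM in Trp53_WT (8.04 ± 0.15 SE, edgeR adjusted p = 1.1e-09). The Trp53_WT libraries held 13 Lrrn4 counts in all.
In Slc7a2, a transporter of cationic amino acids, Lx8 at chr8:40918552-40918831 was at -6.53 in the authors' deposited table (FDR 1.2e-33). Slc7a2 was at 1.07, 1.51 and 1.38 CPM in Trp53_KO and 149, 147 and 138 CPM in Trp53_WT (-6.78 ± 0.12 SE, edgeR adjusted p = 1.1e-09). A smaller difference also reached a low FDR: HAL1 at chr13:99433845-99434350, in a 5′ untranslated region of Map1b, a microtubule-associated protein, was at 0.74 (FDR 4.8e-26) in the authors' deposited table, and Map1b at 0.49 ± 0.07 (SE, edgeR adjusted p = 5.8e-04).
The L1M3 copy inside Neat1 printed above was at -0.69 in the authors' deposited table (FDR 3.0e-10). Neat1 was at 1800, 2220 and 3120 CPM in Trp53_KO and 4470, 3100 and 3090 CPM in Trp53_WT, so that the genotypes overlapped, and the gene was not called (-0.58 ± 0.20 SE, edgeR adjusted p = 0.057).

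Called copies sat in stretches of the genome together with other repeats. Within 10 kb and in the same read direction, 155 of the 244 higher rows (63.5%) had a called repeat of another class that was also higher, and 146 of the 290 lower rows (50.3%) had one that was also lower. Among uncalled older L1 rows the shares were 1.75% and 1.68%. When called rows of 1 read direction and sign were joined over gaps of up to 50 kb, the higher rows formed 136 stretches and the lower rows 178. Of these, 25 and 26 held at least 3 rows, with 118 higher and 112 lower rows in all, while 96 and 126 were single rows.
The fullest stretch, chr16:77511494-77659388 in Mir99ahg, held 14 called rows among 42, and 41 of the 42 were above 0 in the authors' deposited table. The Pkhd1l1 stretch, chr15:44478851-44596159, held 11 called among 30, with 29 above 0. In Trit1 8 of 9 rows were called between chr4:123018600-123042091, all 9 below 0, with a median of -2.52 in the authors' deposited table. In Cacnb2 8 of 23 rows were called between chr2:14618061-14702922, 21 below 0, with a median of -2.99 in the authors' deposited table. Within the bounds of these 4 stretches, which do not cover the whole genes, 100 of the 104 rows had the sign of the called ones.

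**Figure D5:**
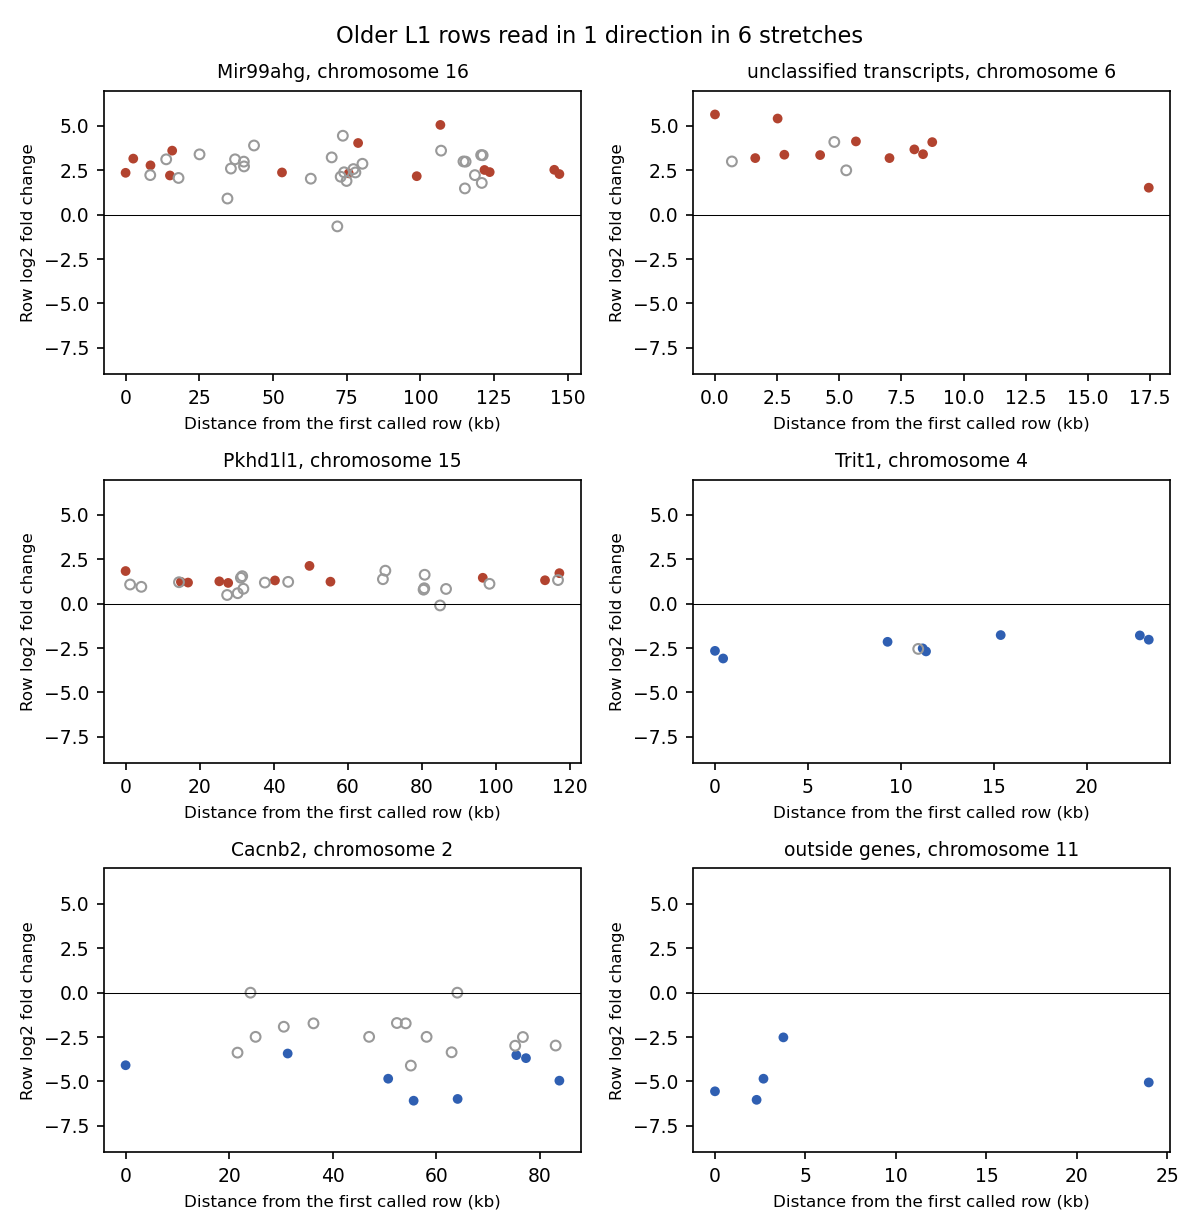
Log2 fold change in the authors' deposited table (y axis) of every older L1 row read in the direction of the stretch, against the distance from its first called row (x axis, kb), in 6 stretches. Filled points have an FDR under 0.05 (red higher, blue lower in Trp53_KO) and open points do not; of the 42 Mir99ahg rows 41 lie above 0, and all 5 on chromosome 11 lie below 0.

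Other stretches lay outside protein-coding genes on their read strand. The stretch on chromosome 3 described below overlapped Sprr2a1 and Sprr2a2 on the other strand. On chromosome 6, chr6:3324297-3341956 read on the minus strand held 11 called rows of 14, all 14 above 0, and the called ones ran from 1.52 to 5.65 in the authors' deposited table. The L1MDa copy printed first was at 3.19 (FDR 2.1e-04) in the authors' deposited table, and L1_Mur3 at chr6:3331312-3332345 was at 3.19 (FDR 1.1e-31). Both non-coding transcripts annotated there rose: RP24-328P2.5 was at 138, 136 and 140 CPM in Trp53_KO and 29.0, 26.0 and 25.4 CPM in Trp53_WT (log2 fold change 2.37 ± 0.08 SE, edgeR adjusted p = 2.9e-08). RP23-253G12.8 was at 3.82, 4.29 and 4.52 CPM in Trp53_KO and 0.54, 0.593 and 0.268 CPM in Trp53_WT (3.16 ± 0.25 SE, edgeR adjusted p = 9.7e-06). Samd9l, the nearest tested gene with a position on that strand at 30.3 kb, did not pass the test (0.09 ± 0.08 SE, edgeR adjusted p = 0.43).
On chromosome 1, L1_Mus1 at chr1:45028056-45028657 was at 3.79 (FDR 1.8e-27) and L1VL4 at chr1:45025557-45027857 at 3.32 (FDR 1.2e-25) in the authors' deposited table. The nearest tested gene with a known position on the read strand, Gulp1, was 231 kb from the L1_Mus1 copy. On chromosome 4, all 8 rows of chr4:84083578-84087195 were higher, from 2.23 to 4.03 in the authors' deposited table, 188 kb beyond the end of Bnc2, a zinc finger gene that was itself higher (1.44 ± 0.11 SE, edgeR adjusted p = 9.7e-06).
On chromosome 11, all 5 rows of chr11:83024253-83050382 were lower, from -6.04 to -2.52 in the authors' deposited table. They lay between Schlafen genes: Slfn8, 3.44 kb away on the read strand, did not pass the test (-1.0 ± 0.34 SE, edgeR adjusted p = 0.052), while Slfn2, 14.7 kb away on the other strand, was at 0.816, 0.905 and 0.745 CPM in Trp53_KO and 26.3, 28.2 and 28.3 CPM in Trp53_WT (-5.06 ± 0.13 SE, edgeR adjusted p = 7.9e-09).
On chromosome 3, 8 of 9 rows of chr3:92210828-92281824 on the minus strand were lower, from -3.15 to -1.22 in the authors' deposited table. The identical Lx5c copies printed above were at -1.75 and -1.22 in the authors' deposited table, and reads that lie wholly within identical copies cannot be told apart. Their transcripts RP24-574O8.8 (-2.01 ± 0.16 SE, edgeR adjusted p = 1.2e-05) and RP24-574O8.9 (-1.65 ± 0.19 SE, edgeR adjusted p = 1.3e-04) fell. Sprr2a1 and Sprr2a2, small proline-rich proteins of the epithelial envelope encoded on the other strand, rose by 1.69 ± 0.17 (SE, edgeR adjusted p = 6.0e-05) and 1.74 ± 0.14 (SE, edgeR adjusted p = 1.0e-05). Near-identical members of the Sprr2 family can share reads, so these values are uncertain.

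The lowest older L1 rows were 3 long L1_Mus1 copies on chromosome 4, read along the repeat strand. They lay at chr4:121764514-121768649, chr4:122176989-122181124 and chr4:122509343-122513480 and were 4136, 4136 and 4138 bases long. In the authors' deposited table they were at -8.27 (FDR 2.8e-20), -8.63 (FDR 1.5e-41) and -8.19 (FDR 1.9e-35). Long L1_Mus3 copies beside them were also below 0, one at -5.77 (FDR 0.0018) and others at -5.42 (FDR 0.057), -4.31 (FDR 0.36) and -4.04 (FDR 0.54) in the authors' deposited table. The nearest tested gene with a known position on the read strand was Ppt1, a lysosomal thioesterase, 323 to 1070 kb away (-2.73, edgeR adjusted p = 9.9e-09). The copies are of nearly equal length, so they may share reads, and how reads with several positions were counted is not given in the sources used here.
Of all called intergenic rows, 56 of 62 higher and 56 of 79 lower ones had no tested gene with a known position within 10 kb on the read strand. Of the rest, the nearby gene was called the same way for 5 of 6 higher and 9 of 23 lower rows.
Both read directions were called at 3 loci, all in the non-coding transcript RP24-472D23.1 on chromosome 15 and all lower. There L1VL2 at chr15:60168145-60172065 was at -2.04 with plus-strand reads and -1.2 with minus-strand reads in the authors' deposited table. The L1_Mus3 copies at chr15:60143942-60145042 and chr15:60143566-60143942 were at -2.23 and -1.89 with plus-strand reads, and at -0.83 and -0.98 with minus-strand reads, in the authors' deposited table. Between them Lx3B at chr15:60145057-60146797 was at -2.87 (FDR 1.5e-19) in the authors' deposited table, and the transcript was at 8.62, 7.3 and 6.38 CPM in Trp53_KO and 13.8, 12.4 and 13.6 CPM in Trp53_WT (-0.83 ± 0.13 SE, edgeR adjusted p = 8.8e-04).

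On chromosome X the older L1 rows leaned lower. Of 4455 rows 2 were higher (0.0449%) and 35 lower (0.786%), with a median of -0.2429 in the authors' deposited table. All 26039 repeat rows of chromosome X had 0.28% higher and 0.534% lower, with a median of -0.2056 in the authors' deposited table, so repeats of other classes leaned the same way. So did the genes: of 365 tested genes on chromosome X, 46 rose and 166 (45.5%) fell by edgeR at an adjusted p under 0.05, with a median log2 fold change of -0.272, against -0.017 over all tested genes. Stretches of lower rows on this chromosome lay in Eda2r, where 6 of 17 rows between chrX:97332334-97368408 were called, and beside Firre, a long non-coding RNA of chromosome architecture. There 4 of 5 rows between chrX:50538605-50555011 were at -6.03 to -4.6 in the authors' deposited table, read on the strand opposite to Firre and ending 0.733 kb from it. Firre was at 29.6, 27.0 and 32.4 CPM in Trp53_KO and 59.6, 46.3 and 41.7 CPM in Trp53_WT (-0.73 ± 0.13 SE, edgeR adjusted p = 0.0025).

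Genes that silence or restrict LINE-1 elements were called about as often as genes at large. Of a list of 56 such genes 48 could be tested, and 8 rose, 6 fell and 34 did not pass the test (edgeR, adjusted p under 0.05), against 14.1% higher and 16.1% lower (30.3% called) over all tested genes. The median log2 fold change of the 48 was 0.068, against -0.017 over all tested genes. The DNA methyltransferase gene Dnmt3a was at 69.4, 73.8 and 75.5 CPM in Trp53_KO and 59.2, 50.4 and 50.3 CPM in Trp53_WT (0.45 ± 0.09 SE, edgeR adjusted p = 0.0031), and Daxx, a chaperone of histone H3.3, was at 0.43 ± 0.09 (SE, edgeR adjusted p = 0.0069). Of those that fell, Suv39h1, a methyltransferase for lysine on histone H3, was at -0.43 ± 0.07 (SE, edgeR adjusted p = 0.0018). Trim28, the co-repressor recruited by zinc finger proteins to repeats, rose by 0.24 ± 0.06 (SE, edgeR adjusted p = 0.018), Dnmt1 by 0.20 ± 0.06 (SE, edgeR adjusted p = 0.037) and Morc2a, of the HUSH pathway, by 0.22 ± 0.07 (SE, edgeR adjusted p = 0.028). The RNA-binding factor Zc3hav1 fell by 0.23 on the log2 scale (± 0.05 SE, edgeR adjusted p = 0.011). Setdb1 (0.01 ± 0.06), Mphosph8 (0.02 ± 0.09), Samhd1 (0.01 ± 0.14) and Mov10 (0.17 ± 0.09, SE) did not pass the test. The 14 calls fell to 8 without Trp53_KO replicate 1, 7 without Trp53_WT replicate 2 and 9 without Trp53_WT replicate 3, and those of Trim28, Dnmt1, Morc2a and Zc3hav1 were among the calls lost in at least 1 such fit.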

How the data were processed

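Stranded total RNA libraries of ID8 cells, 3 Trp53_KO and 3 Trp53_WT, were analysed from the deposited tables. The submitters' processing notes name STAR, featureCounts, edgeR and the build mm10; how reads with several positions were treated is not given in the sources used here. Gene values are the raw counts the authors deposited, whole numbers for 41327 symbols. The repeat table holds, per copy and read direction, the authors' log fold change and FDR (their adjusted p-value), and nothing per library. Its log base was tested on 550 rows in transcribed parts of changed genes, where the authors' deposited fold change was a median of 1.03 times the log2 fold change of the gene counts; natural logarithms would give 0.693 times. Read direction was taken from the row suffix, which was the gene strand in 88.0% of 38905 rows annotated as exonic or 3′ untranslated. Unused columns of per-sample values numbered 0.

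Genes were tested in R 4.3.3 with edgeR 4.0.16 (TMM, filterByExpr, glmQLFit and glmQLFTest, Benjamini-Hochberg over 13651 genes, adjusted p under 0.05), checked on simulated data; DESeq2 1.42.0 was an alternative. The biological coefficient of variation was 9.75%. CPM were computed on TMM-scaled totals of the deposited counts. Host genes were taken from GENCODE M21 by 1 base of overlap on the read strand. The closing part gives the alternatives: thresholds, gene neighbourhood, element length, size factors, filter, replicate block and each library left out.

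Members and gene lists were chosen with earlier results of these data known. Named loci were the 6 rows with the lowest FDR in each direction, the 4 outside genes with the lowest FDR in each direction, and loci called in both directions; named genes were their hosts and the 12 hosts with the most called rows; named subfamilies were the 12 largest and the 6 with the highest shares each way. Named stretches, the copies printed as sequence, and genes beside them were chosen after their values were seen. Of the L1 list, members called (up to 12 by adjusted p) and 8 picked by name could be named. Some genes of these lists are not reported here by name.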

Additional observations from a re-analysis of the deposited data

How the results depend on the processing

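The counts of older L1 rows, 244 higher and 290 lower, became 137 and 164 at an FDR under 0.01. Of all repeat rows 0.228% were then higher and 0.174% lower. Outside genes by the authors' annotation the counts were 62 and 79 (0.534% and 0.681%), against 0.85% and 0.401% of all such rows. Outside GENCODE genes extended by 10 kb they were 32 and 19 (1.01% and 0.597%), against 1.31% and 0.459%. There more older L1 rows were higher than lower. For elements of at least 500 bases they were 120 and 165 (0.538% and 0.74%), against 1.06% and 0.626%. Each of these settings leaves fewer rows by construction. With a log2 change past 1 the counts were 240 and 274, and of all repeat rows 0.369% were then higher and 0.269% lower. With the called rows of a host gene counted once they were 163 and 218. The 160 host genes called in the direction of their row ranged from 152 to 162 with 1 library left out. The 14 called genes of the L1 list ranged from 7 to 17 with 1 library left out. Of 41 genes followed over 10 alternatives 28 kept call and direction, 8 lost a call, 3 gained one and 3 turned. Those that turned had values near 0 and were not called: with 1 library left out Mphosph8 ranged from -0.03 to 0.1 (-0.02 among them), Samhd1 from -0.08 to 0.23 (-0.07 and -0.03 among them) and Gulp1 from -0.1 to 0.13 (-0.03 among them); the cause was not tested. With the replicate number as a block, 3806 genes were called, against 4130 without it, and 160 host genes. Same-numbered libraries did not deviate together (correlations of -0.053, 0.077 and -0.122), so the numbers do not pair them. The depth behind each repeat row is unknown, and in the gene tables few counts limit Cacnb2 in Trp53_KO and Lrrn4 in Trp53_WT.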
